A study of Homo sapiens with 12 samples.

Results

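The interaction of 8HQ and FAC is the part of the response of HepG2 cells to the combined treatment that the responses to each agent alone do not add up to. It was taken per gene as the change with 8HQ in the presence of FAC minus the change with 8HQ in its absence, on the scale of log2 of FPKM plus 1. FPKM, the unit the authors deposited, is a read or fragment count corrected for the length of the gene model and for the mapped total. All 12 libraries entered, and 10823 of the 20030 listed genes (54%) had at least 1 FPKM in 3 or more of them and were tested. A called gene has an adjusted p under 0.05 (limma, Benjamini-Hochberg over all tested genes, two-sided). A called interaction was named synergy where the 8HQ effect was called only with FAC, or more strongly in the same direction with it. It was named antagonism where the change made by 8HQ alone was lost or smaller with FAC, and reversal where 8HQ changed the gene in opposite directions without and with FAC, both changes called. In 59 positive and 114 negative called genes none of these held. The names describe arithmetic on this scale and no mechanism.

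Iron that is not bound in ferritin or heme forms a labile pool inside cells, and cells sense it through iron regulatory proteins, through oxygen- and iron-dependent hydroxylases and, in the liver, through BMP-SMAD signalling. The liver hormone hepcidin, encoded by HAMP, limits the export of iron through ferroportin. Labile iron also takes part in the formation of radicals, to which cells respond with the transcription factor NRF2, held back by KEAP1, and with immediate early genes of growth factor and stress signalling. Chelators such as 8-hydroxyquinoline can bind metals and, as lipophilic complexes, move them across membranes.

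HepG2 is an established human liver cancer line, labelled as liver. The groups hold 3 libraries each and are named for the agent: DMSO (the vehicle), 8HQ, FAC, and the combination of both agents, written 8HQ_FAC. No label gives a further agent or a genetic change. The labels give 10 µM and 6 h in a sentence that also covers DMSO, so the dose of each agent is not certain. They do not expand the abbreviations, which in iron research commonly mean 8-hydroxyquinoline and ferric ammonium citrate. Separate cultures are not mentioned for the replicates, so a p reflects the spread between these samples alone, and that spread may be purely technical. In bulk RNA, fewer cells of a kind and less RNA per cell cannot be told apart.

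The deposited FPKM summed to 335508 to 346915 in the 9 libraries of DMSO, 8HQ and FAC and to 419275 to 427192 in 8HQ_FAC, whose relative sequencing depth was lower (0.773 to 0.842 of DMSO replicate 1, against 0.918 to 1 elsewhere). All 13 markers of HepG2 cells and hepatocytes were above 0 in every library. Of 17 leukocyte and Kupffer cell markers, 14 to 17 were above 0 in each library without FAC and 6 to 11 in each library with it. Their summed FPKM was 1055 to 1223 without FAC, 1181 to 1265 in FAC and 1975 to 1996 in 8HQ_FAC, nearly all of it LYZ. Only 5 of the 17 were high enough to test, and PTPRC and CD3E stayed at or below 0.233 and 0.185 FPKM in every library. The sum thus follows LYZ and not the list as a whole. HBB, TYROBP and CD3E were at 0 in all 6 libraries with FAC, and the summed red cell markers reached 41.6 FPKM in 8HQ replicate 1 against 0.770 to 15.4 in the DMSO libraries. Each 8HQ effect compares libraries on 1 side of this split. The part of the split, and of the uneven red cell markers among the DMSO and 8HQ libraries, in the interaction was not tested.

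The interaction was called in 8303 genes (76.7%), positive in 2533 (23.4%) and negative in 5770 (53.3%). A positive interaction means that 8HQ_FAC lies above what adding the 2 separate effects gives, and a negative one that it lies below. The difference reached 2-fold in 144 genes upward (1.33%) and in 804 downward (7.43%). 8HQ without FAC changed 531 genes (4.91%; 270 or 2.49% higher, 261 or 2.41% lower), and with FAC it changed 8968 (82.9%; 2905 or 26.8% higher, 6063 or 56% lower). These pairs of groups share no library. The median interaction of all tested genes was -0.24 on the log2 scale, and the balance of positive and negative calls turned with the scaling. The positive calls made up 30.5% of all calls as deposited, 49.1% after quantile normalization, 62.3% after median centring, 14% with equal FPKM sums and 51.5% after removing the trend with transcript length. The direction did not depend on these scalings for the 1054 positive (9.74%) and 2511 negative (23.2%) genes called alike under all 4 of them. Below, a gene is said to have kept its class where class and direction were the same in all 4.

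**Figure D1:**
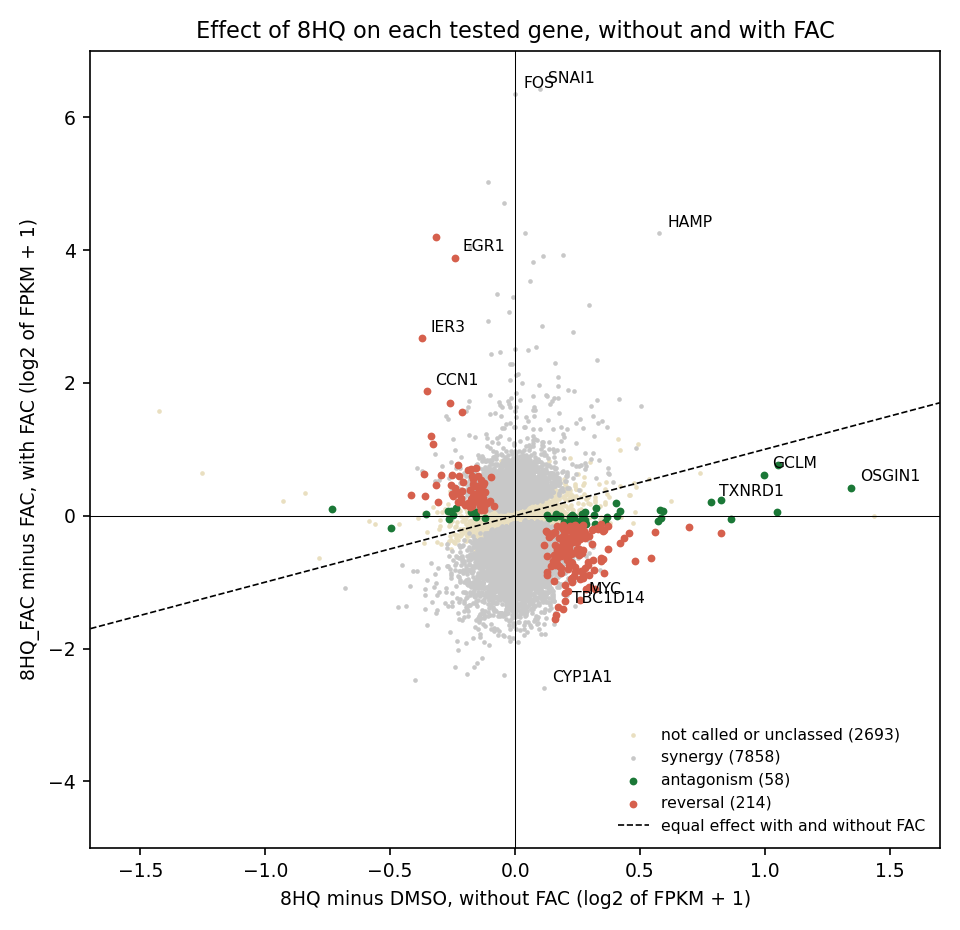
Change with 8HQ without FAC (x axis) and with FAC (y axis) for each of the 10823 tested genes, both as differences of mean log2(FPKM + 1), coloured by class, with the dashed line marking equal effects. The 7858 synergy genes stretch along the y axis at x values near 0, the 214 reversal genes fill the upper left and lower right fields, and the 58 antagonism genes lie near y = 0 or between the x axis and the dashed line.

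Synergy took in 2389 positive (22.1%) and 5469 negative genes (50.5%). In 2346 and 5330 of them the 8HQ effect without FAC was not called, and in 43 and 139 it was called in the same direction and smaller. With FAC, the median 8HQ effect was 0.43 in the positive and -0.57 in the negative genes, against -0.00 and 0.02 without FAC. All 3 8HQ_FAC libraries lay above the 9 others in 1955 of the 2389 positive genes, and in 20.7% of all tested genes. They lay below the 9 others in 4885 of the 5469 negative genes, and in 49% of all. The class rests on the same libraries, so these counts follow largely from its definition. In 201 and 228 genes the 8HQ_FAC mean lay between the means of DMSO and FAC, so that a positive or negative synergy with 8HQ is there a return toward the DMSO level. Class and direction were kept under the 4 scalings by 923 positive and 2317 negative genes, and in every one of the 12 fits that leave out a library by 2100 and 5049. Under the other 4 scalings the synergies of all tested genes numbered 1102 to 4785 positive and 2844 to 7199 negative, so the counts in the gene lists below are read beside these and beside the 22.1% and 50.5% as deposited.

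The largest positive synergies were those of immediate early genes and of SNAI1, a repressor that drives epithelial cells toward a mesenchymal state. SNAI1 stood at 1.33, 1.03 and 1.45 FPKM in DMSO, 1.23, 1.53 and 1.54 in 8HQ, 1.68, 1.04 and 1.21 in FAC and 194, 211 and 184 in 8HQ_FAC. FOS, a subunit of the transcription factor AP-1, stood at 2.52, 2.92 and 2.25 in DMSO, 2.49, 2.61 and 2.54 in 8HQ, 0.705, 0.547 and 1.31 in FAC and 148, 154 and 142 in 8HQ_FAC. For SNAI1 the 3 groups without the combination overlapped, and for FOS the FAC libraries lay below DMSO and 8HQ, which overlapped; in both genes the combination stood far above all 9 others. The interaction was 6.35 for FOS (SE 0.15, adjusted p = 1.52e-13) and 6.32 for SNAI1 (SE 0.13, adjusted p = 5.05e-14). The next in this class were ARC (5.13), a neuronal immediate early gene, the AP-1 subunit FOSB (4.76), the stress factor ATF3 (4.23) and RRAD (4.22), a small GTPase-like regulator of calcium channels. All 6 kept their class under the 4 scalings. ARC was at or below 0.250 FPKM in every library outside 8HQ_FAC, where it was 33.5, 41.2 and 35.6.

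Of 28 tested immediate early genes, 14 showed positive synergy, 7 positive reversal, 5 negative synergy and 1 negative reversal, and 1 was unclassed. Their median interaction lay 2.01 above the median of all genes, and by 1.91 to 2.01 with each of the other scalings. Of the 28, 19 were past 2-fold upward, against 1.33% of all tested genes. NF-kB and inflammation genes (13 tested) gave 7 positive synergies, 2 positive reversals and 3 negative synergies, with a median of 0.78 above all genes. CXCL8, a neutrophil chemokine, had means of 6.44, 5.96, 1.7 and 13.4 FPKM in DMSO, 8HQ, FAC and 8HQ_FAC, CXCL2 of 1.41, 1.99, 1.37 and 11, and NFKBIA, the inhibitor of NF-kB, of 123, 121, 93.1 and 292. In CXCL8 and NFKBIA, FAC alone lay below DMSO and the combination above it. Genes of the ATF4 stress response (34 tested) gave 20 positive and 10 negative synergies and 2 positive antagonisms, with a median of 0.55 above all genes (0.27 to 0.55 under the other scalings). Equal sums turned the balance of the synergies to 10 positive and 13 negative. Read from FAC, as set out further below, the 34 gave 1 positive and 8 negative synergies. They gave 10 positive and 1 negative reversals and 12 positive and 1 negative antagonisms. Positive reversal and positive antagonism in that reading mean that FAC alone lowered the gene. Of all tested genes 16.3% were positive synergies, 3.46% positive reversals and 3.46% positive antagonisms there. GDF15, a secreted stress hormone, had means of 280, 315, 83.7 and 361 FPKM in the same order of groups, and PPP1R15A, which restarts translation, of 27.5, 27.5, 10.1 and 47.0. Of 26 p53 targets, 14 showed positive and 8 negative synergy and 1 negative reversal, which became 9 and 12 synergies with equal sums and 18 and 2 with median centring. Among them were PLK2, a kinase of stress responses, at 6.27, 6.64, 4.84 and 81.8 and CDKN1A, an inhibitor of the cell cycle, at 75.2, 79.7, 57.2 and 339. The 26 p53 targets, read from FAC, gave 3 positive and 7 negative synergies. In that reading 8 were positive and 1 negative reversals, and 3 positive and 1 negative antagonisms. Of 21 heat shock genes, 11 showed positive and 6 negative synergy and 1 negative antagonism; the synergies were 7 and 9 after quantile normalization, 7 and 10 with equal sums and 15 and 3 with median centring. HSPA1B and HSPA1A, near-identical copies whose reads the counting could split, rose from 39.1 and 24.2 FPKM in FAC to 154 and 84.7 in 8HQ_FAC, and BAG3, their co-chaperone, from 20.5 to 57.6.

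Metal-binding genes followed. Of 11 tested genes of metallothioneins and the zinc response, 7 showed positive and 3 negative synergy, with a median of 1.31 above all genes and of 0.61 once the length trend was removed. MT2A stood at 125, 133 and 123 FPKM in DMSO, 129, 160.1 and 132 in 8HQ, 71.7, 74.6 and 68.9 in FAC and 238, 229 and 229 in 8HQ_FAC. DMSO and 8HQ overlapped, FAC lay below both and the combination above all others. Its interaction was 1.54 (SE 0.09, adjusted p = 6.08e-10). MT1E and MT1X had interactions of 1.35 and 1.10. The metallothioneins are close paralogs, so their reads may be shared. SLC39A10, a zinc importer, went the other way, with a mean of 5.91 FPKM in FAC against 2.50 in DMSO, 2.02 in 8HQ and 1.32 in the combination.

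Hepcidin was among the 43 positive synergies in which 8HQ alone already raised the gene. HAMP stood at 3.95, 3.29 and 2.34 FPKM in DMSO, 5.40, 5.25 and 4.85 in 8HQ, 1.02, 0.456 and 0.587 in FAC and 29.7, 29 and 34.4 in 8HQ_FAC. The groups did not overlap, with FAC lowest, then DMSO, then 8HQ, and the combination highest. The 8HQ effect on the log2 scale was 0.58 without FAC (adjusted p = 0.019) and 4.26 with it, an interaction of 3.68 (SE 0.18, adjusted p = 1.7e-10). The stretch of 150 bases before the HAMP start is shown because hepcidin is the gene named in the title of the series and because it holds the letters GGCGCC (in capitals), the core of a BMP-responsive element known in this promoter (RefSeq, GRCh38.p14, chr19:35282378-35282527, plus strand, 5′ to 3′).
HAMP: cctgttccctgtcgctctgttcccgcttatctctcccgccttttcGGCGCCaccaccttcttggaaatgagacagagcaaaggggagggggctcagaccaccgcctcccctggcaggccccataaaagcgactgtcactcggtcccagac
The same 6 letters, which read alike on both strands, stand in 31.5% of the 8950 promoters of tested genes (250 bases before to 50 after the start), so the match is a description only.

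**Figure D2:**
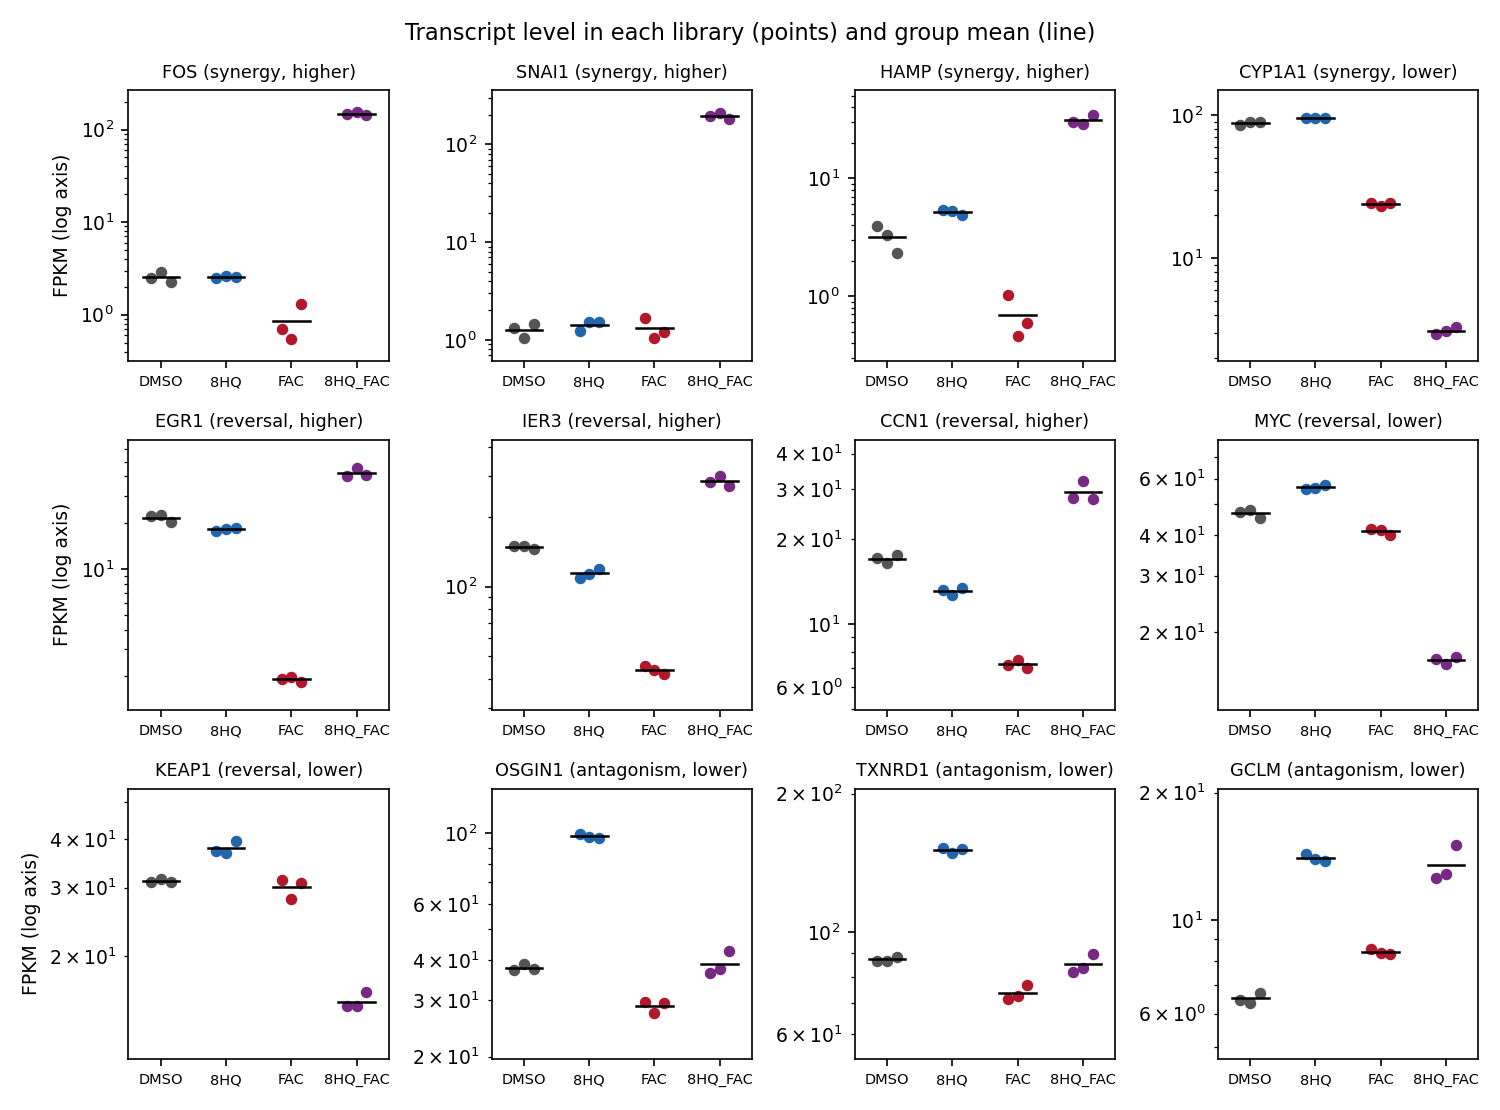
FPKM (log axis, own range in each panel) of 12 genes in every library (points) with the group mean (line), by treatment on the x axis. FOS, SNAI1 and HAMP rise above all other libraries only in 8HQ_FAC; EGR1, IER3 and CCN1 fall slightly with 8HQ alone and rise with 8HQ in the presence of FAC; OSGIN1 and TXNRD1 rise with 8HQ alone and stay near the DMSO level in 8HQ_FAC.

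Of 18 tested genes of BMP-SMAD signalling and hepcidin regulation, 7 showed positive and 8 negative synergy and 3 had no called interaction, with a median 0.13 above the median of all genes. Under the other scalings the positive synergies were 5 to 10 and the negative ones 5 to 10. The positive ones held the target genes, the ID inhibitors of differentiation. ID2 had an interaction of 2.44 and ID3 of 1.82. ID1 stood at 42.4, 43.6 and 41.1 FPKM in DMSO, 40.2, 40.8 and 41.3 in 8HQ, 10.7, 11.1 and 10.8 in FAC and 35.9, 37.5 and 34.4 in 8HQ_FAC. FAC alone thus lay far below DMSO and 8HQ, and the combination just below them, an interaction of 1.69 (SE 0.05, adjusted p = 1.61e-12). SMAD7, the feedback inhibitor, had an interaction of 0.64, and TMPRSS6, a protease that restrains hepcidin signalling, of 0.41; the latter was not called alike under every scaling. BMP6, the iron-responsive ligand, was too low to test, at or below 0.270 FPKM in every library.

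Genes of iron storage, uptake and export did not move together. Of 20 tested, 7 showed positive and 8 negative synergy and 1 negative reversal, and 4 had no called interaction; the median lay 0.13 above that of all genes and -0.01 from it after quantile normalization. The synergies were 5 positive and 11 negative with equal sums and 11 and 4 with median centring. TFRC, the transferrin receptor, whose mRNA is degraded when iron is ample, stood at 65.0, 63.8 and 66.6 FPKM in DMSO, 66.8, 66.6 and 65.0 in 8HQ, 14.1, 12.6 and 13.4 in FAC and 47.5, 47.5 and 46.6 in 8HQ_FAC. DMSO and 8HQ overlapped, FAC was lowest and the combination lay between FAC and DMSO. The interaction was 1.73 (SE 0.05, adjusted p = 1.04e-12), a synergy in the 8HQ reading and, read from FAC, a smaller fall in the presence of 8HQ. IREB2, iron regulatory protein 2, had means of 13.2, 13.3, 14.2 and 4.96 FPKM in DMSO, 8HQ, FAC and 8HQ_FAC (interaction -1.36). The ferritin chains FTH1 and FTL had interactions of 0.58 and 0.46, which turned to -0.16 and -0.27 under quantile normalization. SLC40A1, ferroportin, had no called interaction (0.11, SE 0.07, adjusted p = 0.163).

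The negative synergies were led by CYP1A1, a monooxygenase induced through the aryl hydrocarbon receptor. It stood at 85.8, 90.1 and 89.7 FPKM in DMSO, 95.7, 95.7 and 96.3 in 8HQ, 24.3, 23.4 and 24.2 in FAC and 2.97, 3.08 and 3.31 in 8HQ_FAC. 8HQ lay slightly above DMSO, FAC below both and the combination lowest, with no overlap. Its interaction was -2.71 (SE 0.05, adjusted p = 1.33e-14). Others of large size were C15orf39 (-2.36), TGFBR2, a receptor of TGF-beta (-2.19), the WNT target SP5 (-2.11) and the WNT inhibitor DKK1 (-2.07). TGFBR2 fell from a mean of 79.8 FPKM in FAC to 14.5 in 8HQ_FAC, and DKK1 from 64.0 to 10.8, where 8HQ alone took them from 86.3 to 75.4 and from 54.4 to 41.0. These 5 genes kept their class under the 4 scalings.

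Transcription factors that define hepatocytes fell together. Of 24 tested, 21 showed negative synergy, 1 (CEBPA) negative reversal and 1 positive synergy, against 50.5% of negative synergies among all genes, and their median lay 0.82 below that of all genes (0.67 to 0.85 below under the other scalings). Of the 24, 19 were called negative under all 4 scalings. HNF4A, a nuclear receptor that maintains liver identity, stood at 78.5, 78.8 and 81.3 FPKM in DMSO, 84.3, 84.9 and 84.9 in 8HQ, 89.0, 86.8 and 84.2 in FAC and 30.1, 28.8 and 29.5 in 8HQ_FAC. The 8HQ and FAC libraries overlapped and lay slightly above DMSO, and the combination lay far below all 9 other libraries. The pioneer factor FOXA3 had an interaction of -1.69 and ONECUT1 of -1.40. The secreted liver proteins took the opposite sign: of 37 tested, 28 showed positive synergy, 3 negative synergy and 1 positive reversal, with a median of 0.80 above that of all genes as deposited and 0.12 above it after quantile normalization. APOB, the protein of low density lipoprotein and a long transcript, was the exception of largest size, at means of 1660.1, 1603, 1584 and 755 FPKM in DMSO, 8HQ, FAC and 8HQ_FAC.

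Genes of mitosis and of cholesterol synthesis are set beside the 50.5% of negative synergies among all tested genes and the 23.2% called negative under all 4 scalings. Of 32 tested genes of the G2 and M phases, 27 showed negative and 2 positive synergy, with a median of 0.60 below all genes (0.55 to 0.66 below under the other scalings), and 20 were called negative under all 4. MKI67, a marker of cycling cells, had means of 45.2, 46.5, 46.2 and 14.6 FPKM, and the spindle motor KIF11 of 30.3, 29, 28.1 and 9.57. Of 33 S phase genes, 15 showed positive and 8 negative synergy, which turned to 6 and 18 with equal sums and became 28 and 2 with median centring. Read from FAC, the 33 gave 2 positive and 8 negative synergies, 4 positive reversals and 9 positive antagonisms. Of 24 tested genes of cholesterol synthesis and uptake, 20 showed negative and 2 positive synergy (12 to 21 and 0 to 5 under the other scalings), and 12 were called negative under all 4. SQLE, squalene epoxidase, stood at 37.1, 36.0 and 35.7 FPKM in DMSO, 37.2, 38.5 and 37.7 in 8HQ, 62.1, 62.6 and 64.9 in FAC and 18.6, 19.2 and 21 in 8HQ_FAC. FAC alone lay above DMSO and 8HQ, and the combination below all of them. MVK, mevalonate kinase, had an interaction of -1.43.

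Several lists split by gene. HIF targets (39 tested) gave 19 positive and 11 negative synergies, 1 positive reversal and 8 without a called interaction. ADM, a vasodilator peptide, rose from a mean of 5.16 FPKM in FAC to 54.7 in 8HQ_FAC, and CA9, a carbonic anhydrase, from 19.9 to 37.6, where 8HQ alone made no called change; NDRG1, another hypoxia-responsive gene, showed no called interaction (-0.10, SE 0.07, adjusted p = 0.168). Dioxygenases that use iron and 2-oxoglutarate (36 tested) gave 24 negative and 6 positive synergies and 1 negative reversal, with a median of 0.37 below all genes and 0.11 below after removal of the length trend, where the synergies were 15 negative and 9 positive; among all tested genes as deposited 50.5% and 22.1% were such synergies. RIOX1, a ribosomal hydroxylase, had an interaction of -1.36, the oxygen sensor EGLN1 of -1.28 and the demethylase-like JMJD1C of -1.24. All 45 ribosomal protein genes and 31 of 34 nuclear-encoded respiratory chain subunits showed positive synergy as deposited, with medians of 0.96 and 0.66 above all genes. These became 0.14 and 0.21 after quantile normalization, and 31 of the 45 and 16 of the 34 were called positive under all 4 scalings.

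**Figure D3:**
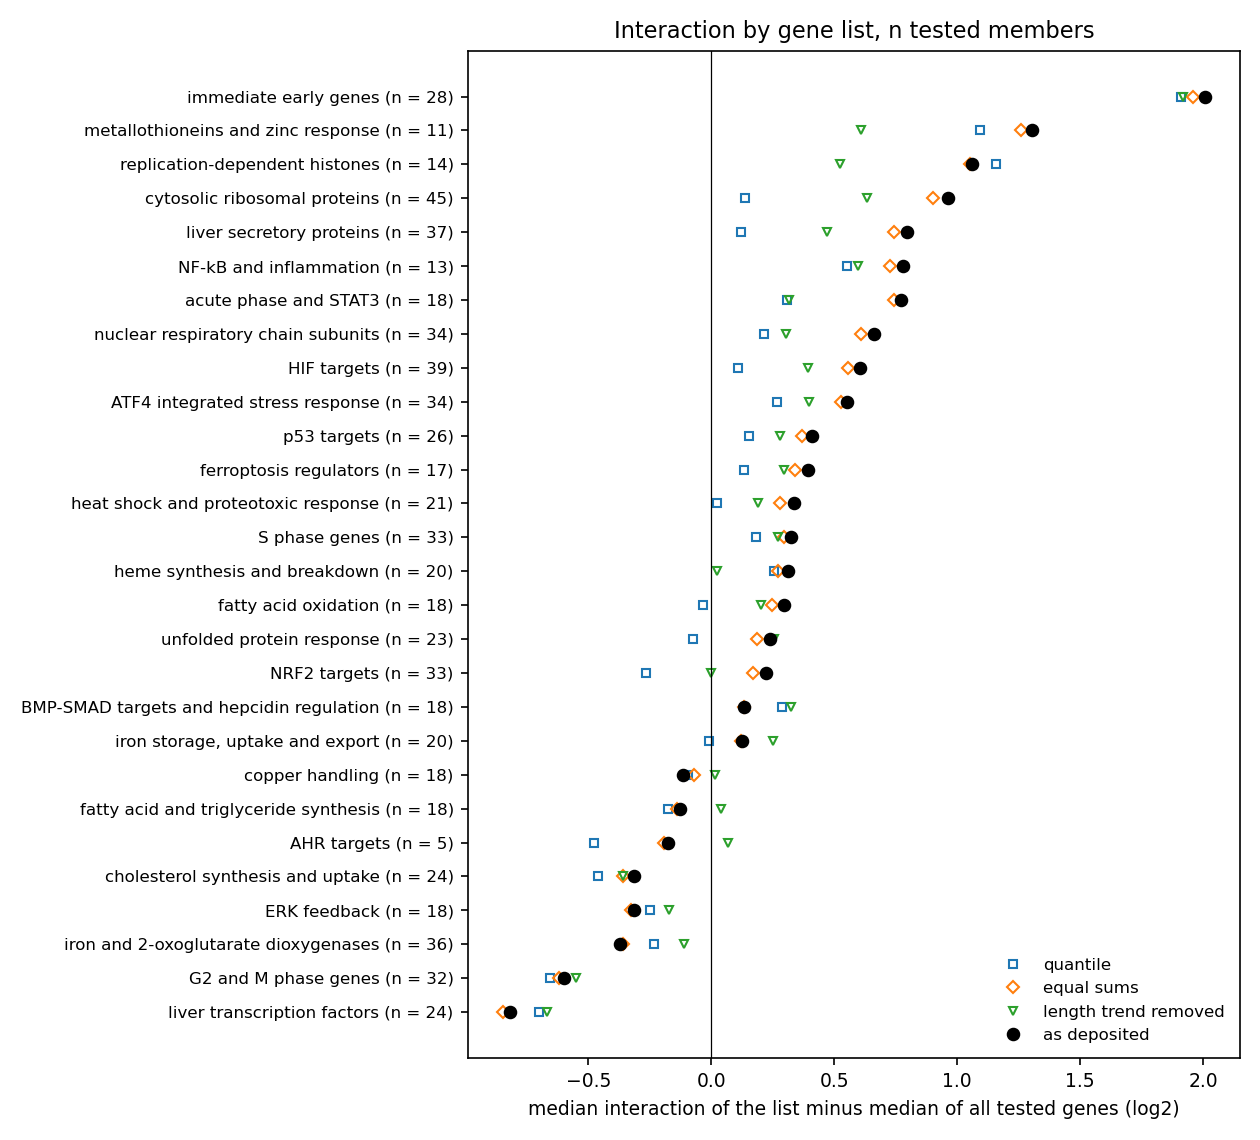
Median interaction of each gene list minus the median of all tested genes, in log2 units on the x axis, as deposited (filled) and with quantiles, equal sums and the length trend removed (open); median centring gives the filled points by construction. Immediate early genes stay near 2 and liver transcription factors at or below -0.67 under every scaling shown, whereas ribosomal proteins range from 0.14 to 0.96 and NRF2 targets change sign.

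Class shares moved with the length of the transcript. In 4 bins of equal size of the 10789 genes with an annotated length, from the shortest to the longest, positive synergy took 48.6%, 22.2%, 11.5% and 6.01% of the genes and negative synergy 19.7%, 44.5%, 61.5% and 76.5%. The median interaction went from 0.21 through -0.16 and -0.34 to -0.57. Reversal in both directions together took 1.59%, 2.30%, 2.04% and 2%, which hides opposite trends. Positive reversals numbered 26, 24, 15 and 7 in the same bins, and negative reversals 17, 38, 40 and 47. The median transcript length was 2203 bases in positive and 4590 in negative synergy, and 2637 in positive and 4382 in negative reversal. The part of this trend, and of the lower depth of the 8HQ_FAC libraries, in the results on single genes was not tested beyond the scaling that removes it.

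**Figure D4:**
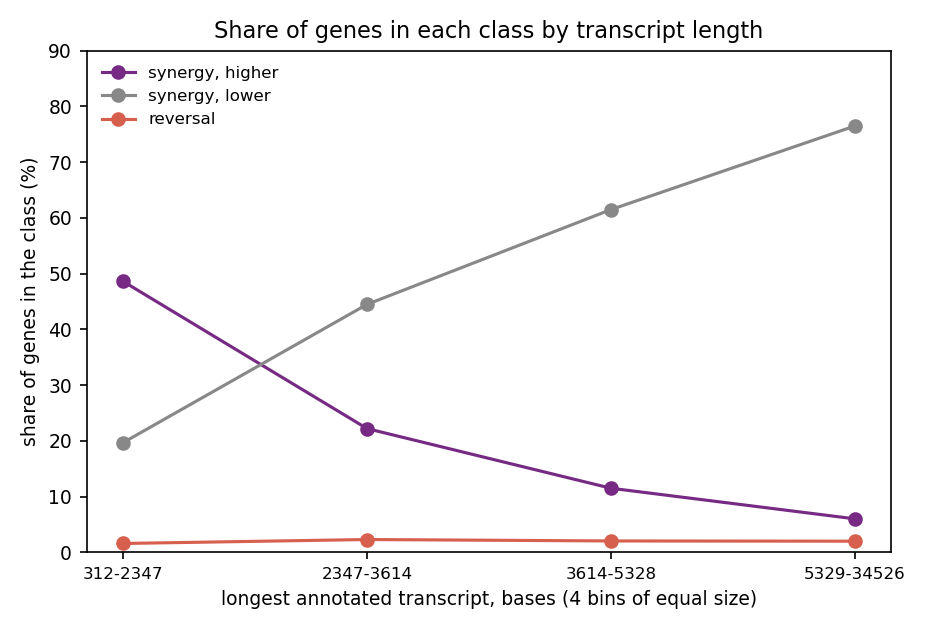
Share of genes (y axis, percent) in positive synergy, negative synergy and reversal in 4 bins of the tested genes by longest annotated transcript (x axis, bases). Positive synergy falls from 48.6% to 6.01% and negative synergy rises from 19.7% to 76.5%. Reversal, drawn for both directions together, stays between 1.59% and 2.30%. Split by direction, positive reversals fall from 26 to 7 genes and negative reversals rise from 17 to 47.

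Reversal held 214 genes, 72 positive (0.665%) and 142 negative (1.31%). In the positive genes 8HQ lowered the level without FAC and raised it with FAC, with median effects of -0.17 and 0.35, and in the negative genes it raised the level without FAC and lowered it with FAC, by medians of 0.23 and -0.54. The effects without FAC were thus small, and 29 positive and 55 negative genes kept their class under the 4 scalings. Of the 270 genes that 8HQ alone raised, 52.6% were lowered by 8HQ in the presence of FAC, against 56% of all tested genes. Of the 261 that 8HQ alone lowered, 27.6% were raised with FAC, against 26.8% of all. These shares are near the background and are no result about the genes that 8HQ alone changed. Under the other 4 scalings the shares were 32.2% to 67.2% beside 30.6% to 72.5%, and 14.7% to 44.8% beside 13.4% to 51.2%. The number also depended on the DMSO and 8HQ libraries. It was 31 positive and 59 negative without DMSO replicate 1, 47 and 77 without DMSO replicate 2, 41 and 73 without 8HQ replicate 1, 41 and 74 without 8HQ replicate 3, and the negative count was 75 without 8HQ replicate 2. In all 12 such fits and under the 4 scalings, 12 positive and 20 negative genes stayed in the class.

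Immediate early genes led the positive reversals that kept their class under the 4 scalings. EGR1, a zinc finger transcription factor of the growth factor response, stood at 22.3, 22.4 and 20.1 FPKM in DMSO, 17.8, 18.1 and 18.4 in 8HQ, 1.92, 1.99 and 1.85 in FAC and 40.3, 45.6 and 40.9 in 8HQ_FAC. IER3, a stress-induced regulator of survival, stood at 149.8, 149 and 145 in DMSO, 109, 114 and 119 in 8HQ, 45.4, 43.6 and 42.2 in FAC and 283, 301 and 271 in 8HQ_FAC. In both genes the groups did not overlap, with FAC lowest, 8HQ below DMSO and the combination highest. The 8HQ effect on EGR1 was -0.24 without FAC (adjusted p = 0.013) and 3.89 with it, an interaction of 4.13 (SE 0.07, adjusted p = 1.33e-14); EGR1 stayed in the class in 9 of the 12 fits that leave out a library. For IER3 the effects were -0.37 (adjusted p = 5.98e-05) and 2.68, and the class held in all 12. CCN1, a matricellular protein, had effects of -0.35 and 1.88 and also held in all 12. SGK1, a kinase induced by stress and hormones, IER2 and the nuclear receptor NR4A1 had interactions of 1.96, 1.77 and 1.54 and held in 11, 4 and 10 of the 12. HBEGF, a ligand of the EGF receptor named after its values were seen, had means of 2.30, 1.66, 0.776 and 31.7 FPKM and an interaction of 4.52, above that of EGR1, but did not keep the class under every scaling. CCN2, CCL20, TRIB1, SDC4 and ZFP36L1, also named after their values were seen, were among the 12 positive genes that held throughout, and so was LYZ, a leukocyte marker on the list above, at 1014 to 1045 FPKM in 8HQ, 1143 to 1185 in DMSO, 1145 to 1234 in FAC and 1922 to 1947 in 8HQ_FAC.

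The promoter of EGR1 is shown because immediate early genes led this class and the synergies and because the serum response factor binds CArG boxes there. The stretch covers the 150 bases before the start (RefSeq, GRCh38.p14, chr5:138465329-138465478, plus strand, 5′ to 3′), with 2 CArG boxes in capitals.
EGR1: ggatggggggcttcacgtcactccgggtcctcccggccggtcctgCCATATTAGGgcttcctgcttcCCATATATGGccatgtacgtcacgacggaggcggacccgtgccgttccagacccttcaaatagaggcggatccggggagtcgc
CArG boxes, searched on both strands, stood in 3 of 57 promoters of positive reversal genes (5.26%: EGR1, HNRNPD and TPM4), in 3 of 108 of positive synergies past 2-fold (2.78%) and in 1.06% of all 8950. The letters TGACGTCA of the cAMP response element stood in 8 of those 108 (7.41%), in 1 of the 57 (1.75%) and in 3.55% of all. Further patterns were counted in these genes, such as CACGTG in 10 of the 108 (9.26%) and in 10.4% of all. No test was made of these shares, and absence from this window says nothing about a factor.

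Among the negative reversals that kept their class under the 4 scalings, the largest were TBC1D14, a regulator of endosomes and autophagy (interaction -1.60), and MYC, the growth-promoting transcription factor. ZCCHC14 (-1.72), FZD4 (-1.65) and BPTF (-1.55), named after their values were seen, did not keep it. MYC stood at 47.4, 47.9 and 45.3 FPKM in DMSO, 55.7, 56.1 and 57.3 in 8HQ, 42.0, 41.5 and 40.1 in FAC and 16.5, 15.9 and 16.8 in 8HQ_FAC. Each group lay apart, with 8HQ highest and the combination lowest. The effects were 0.26 without FAC (adjusted p = 0.00025) and -1.28 with it, and the class held in all 12 fits that leave out a library. ANKRD17 (-1.49), TMCC1 (-1.42), UBE2O, a ubiquitin ligase of protein quality control (-1.38), and ZBTB40 (-1.36) followed, and held in 7, 12, 10 and 8 of the 12. TMCC1 stood at 3.90, 3.95 and 3.68 FPKM in DMSO, 4.80, 5.18 and 5.16 in 8HQ, 9.07, 9.82 and 9.53 in FAC and 3.67, 3.84 and 4.17 in 8HQ_FAC. Here both agents alone lay above DMSO and the combination overlapped DMSO. KEAP1, the sensor that sends NRF2 to degradation, stood at 31.0, 31.6 and 31.0 in DMSO, 37.4, 36.8 and 39.6 in 8HQ, 31.4, 28.1 and 30.8 in FAC and 14.8, 14.8 and 16.1 in 8HQ_FAC. 8HQ lay above the overlapping DMSO and FAC libraries and the combination below all others, with effects of 0.27 and -0.94 that held in all 12.

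Antagonism was the smallest class, with 13 positive genes (0.12%) and 45 negative genes (0.416%). In the 45, 8HQ alone raised the gene (median 0.28) and with FAC the effect was lost in 39 and smaller in 6. In the 13, 8HQ alone lowered the gene (median -0.25), and the effect was lost in 12 and smaller in 1. Under the 4 scalings 3 of the negative and 0 of the positive genes kept the class, and without DMSO replicate 1 the counts were 29 and 8. The positive group held CBS, which makes cystathionine, ANKRD1, a cardiac and stress-induced ankyrin protein, and PSAT1 of serine synthesis, named after their values were seen. CBS, at means of 4.83, 2.52, 2.24 and 2.52 FPKM in DMSO, 8HQ, FAC and 8HQ_FAC, has a near-identical copy with which reads may be shared. In CBS 8HQ, FAC and the combination all lay at about the same level below DMSO, and in ANKRD1, at 32.7, 22.9, 6.82 and 5.94 FPKM, FAC alone lay far below 8HQ alone.

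The negative antagonisms held 6 targets of NRF2. OSGIN1, an oxidative stress-induced growth inhibitor, stood at 37.2, 38.9 and 37.5 FPKM in DMSO, 99.3, 97.3 and 96.6 in 8HQ, 29.6, 27.3 and 29.3 in FAC and 36.4, 37.7 and 42.8 in 8HQ_FAC. TXNRD1, thioredoxin reductase, stood at 86.4, 86.7 and 88.4 in DMSO, 152, 149 and 151 in 8HQ, 71.5, 72.6 and 76.7 in FAC and 82.0, 83.6 and 89.8 in 8HQ_FAC. In both genes 8HQ alone stood above every other library, FAC was lowest and the combination overlapped DMSO. The 8HQ effect on OSGIN1 was 1.35 without FAC (adjusted p = 6.63e-10) and 0.42 with it (adjusted p = 1.01e-06), an interaction of -0.92 (SE 0.07). For TXNRD1 it was 0.78 and 0.21 (interaction -0.58, SE 0.05, adjusted p = 4.75e-08), and for UNKL, a ring finger protein, 0.83 and 0.24 (interaction -0.59, SE 0.08, adjusted p = 4.87e-06). These 3 genes kept the class under the 4 scalings and in all 12 fits that leave out a library, but the size moved with the scaling. The interaction ranged from -1.20 to -0.55 for OSGIN1, from -0.86 to -0.20 for TXNRD1 and from -0.83 to -0.18 for UNKL, whose adjusted p by limma reached 0.044 after removal of the length trend. GCLM, the modifier subunit of glutamate-cysteine ligase, stood at 6.46, 6.37 and 6.73 in DMSO, 14.3, 13.9 and 13.8 in 8HQ, 8.55, 8.35 and 8.33 in FAC and 12.6, 12.9 and 15.1 in 8HQ_FAC. Its interaction of -0.38 became 0.01 once the length trend was removed.

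The promoters of OSGIN1 and TXNRD1 are shown because these genes kept the class. Each stretch covers the 150 bases before the start (RefSeq, GRCh38.p14, plus strand, 5′ to 3′; chr16:83953090-83953239 for OSGIN1 and chr12:104215629-104215778 for TXNRD1). Capitals mark TGACTCA, the AP-1 site that can also lie within antioxidant response elements, in OSGIN1 and TGACNNNGC, the core of the antioxidant response element, in TXNRD1.
OSGIN1: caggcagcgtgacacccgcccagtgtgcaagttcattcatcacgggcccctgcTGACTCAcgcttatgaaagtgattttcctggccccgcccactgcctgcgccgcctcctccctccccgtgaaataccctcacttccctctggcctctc
TXNRD1: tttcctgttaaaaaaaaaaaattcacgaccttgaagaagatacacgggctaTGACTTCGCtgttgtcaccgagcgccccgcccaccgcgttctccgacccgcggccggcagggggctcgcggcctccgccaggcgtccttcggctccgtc
Searched on both strands, TGACTCA stood in 6 of 35 promoters of negative antagonism genes (17.1%: AIFM2, CLDN4, GCNT3, OSGIN1, TRAPPC3 and UNKL) and in 2.89% of all 8950. TGACNNNGC stood in 12 of the 35 (34.3%) and in 15.4% of all. The 2 patterns can overlap in 1 site. Further patterns were counted in the 35, such as GGCGCC in 6 (17.1%) and in 31.5% of all. A match is no site of binding, and no test was made.

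Of 33 tested NRF2 targets, 9 showed negative reversal and 6 negative antagonism, against 1.31% and 0.416% of all tested genes, 12 showed positive synergy and 6 had no called interaction. Negative reversal and negative antagonism are open only to genes that 8HQ alone raised. Of the 270 such genes among all tested, 142 were negative reversals and 45 negative antagonisms. A list with many genes raised by 8HQ alone therefore exceeds the shares of all tested genes by definition. Under the other scalings the negative reversals of the list were 3 to 13 and the negative antagonisms 5 to 10. The median of the list lay 0.22 above that of all genes as deposited, -0.27 from it after quantile normalization and -0.00 after removal of the length trend. Within the list the members thus took different classes. HMOX1, heme oxygenase 1, stood at 30.0, 29.7 and 28.9 FPKM in DMSO, 42.0, 40.3 and 44.9 in 8HQ, 70.6, 70.7 and 72.3 in FAC and 216, 217 and 248 in 8HQ_FAC. Each agent alone raised it and the combination stood highest without overlap, an interaction of 1.15 (SE 0.07, adjusted p = 1.06e-09). SLC7A11, the cystine importer, had means of 12, 13.8, 4.44 and 12.9 FPKM in DMSO, 8HQ, FAC and 8HQ_FAC (interaction 1.16, SE 0.09, adjusted p = 3.15e-08). NQO1, a quinone reductase, stood at 279.7, 269 and 271 in DMSO, 334, 332 and 333 in 8HQ, 255, 256 and 261 in FAC and 305, 303 and 313 in 8HQ_FAC. 8HQ raised it on both sides, by 0.28 and 0.25, and the interaction was not called as deposited (-0.03, SE 0.03, adjusted p = 0.423).

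The genes that 8HQ alone raised most were set out in a further count, chosen after the data were seen. With a difference of at least 0.5 on the log2 scale, 20 genes were higher in 8HQ than in DMSO, of which 11 were antagonisms, 4 reversals, 2 synergies and 3 had no called interaction. The DMSO and 8HQ libraries that chose these genes also enter the interaction, so a negative interaction is favoured by the choice. The 8HQ effect with FAC uses other libraries. It was called higher in 9 of the 20, lower in 4 and not called in 7, against 26.8%, 56% and 17.1% of all tested genes, and its median was 0.15 against -0.22. The antagonisms included AKR1B10, an aldo-keto reductase, with means of 29.9, 63.0, 34.1 and 35.7 FPKM in DMSO, 8HQ, FAC and 8HQ_FAC, ABHD4, a lipid hydrolase, with 25.5, 47.2, 18.7 and 18.1, and SRXN1, sulfiredoxin, with 63.1, 132, 48.0 and 82.0. AKR1B10 and ABHD4 became reversals with equal sums, AKR1B10 also without the length trend. The interaction of SRXN1, -0.29 as deposited, was not called after median centring (0.08, adjusted p by limma = 0.283) or removal of the length trend (adjusted p = 0.0506). The reversals included GCLC, the catalytic subunit of glutamate-cysteine ligase, with 44.9, 80.2, 40.4 and 33.7, which was an antagonism after median centring and after removal of the length trend. The 2 synergies were HAMP and HMOX1. Those without a called interaction as deposited were SQSTM1, an autophagy receptor, with 100.2, 146, 101 and 149, ZNF746, with 4.76, 8.62, 4.28 and 7.27, and SDHAF4, an assembly factor of succinate dehydrogenase, with 1.66, 3.04, 6.73 and 8.04. Their calls depended on the scaling. SQSTM1 was called in opposite directions (-0.35 after quantile normalization, 0.39 after median centring), and so was ZNF746 (0.29 after quantile normalization, -0.35 with equal sums). SDHAF4 was called negative with equal sums (-0.67) and without the length trend (-0.68). Called negative interactions numbered 15 or 16 of the 20 when any 1 library was left out, 11 to 18 under the other scalings and 7 against a fold of 1.5. Of all tested genes 53.3% were called negative as deposited and 14.9% against that fold. The 11 belong to median centring, with 28.1% of all genes negative, and the 18 to equal sums, with 69.2%.

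**Figure D5:**
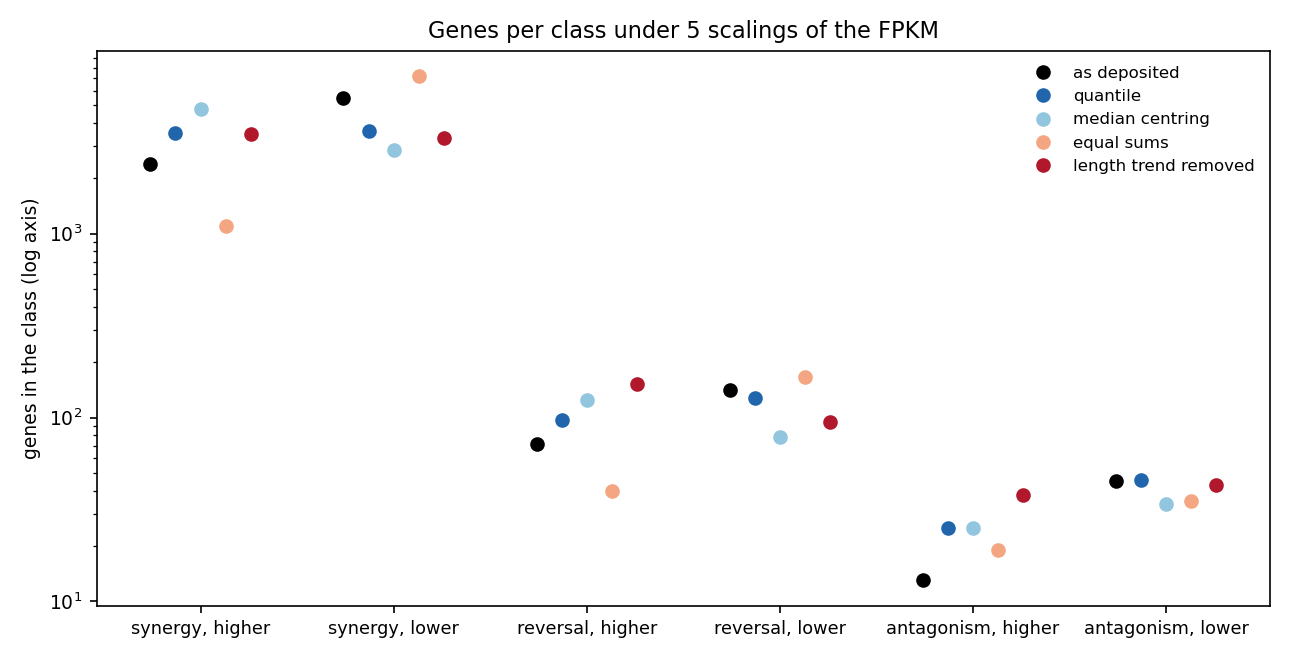
Number of genes (log axis) in each class and direction as deposited and under 4 other scalings of the FPKM. Positive synergy ranges from 1102 to 4785 genes, negative reversal from 78 to 166 and negative antagonism from 34 to 46. The counts do not show the members, and only 3 of the 45 negative antagonisms as deposited kept the class under the 4 scalings.

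Read the other way, the same interaction is the FAC effect with 8HQ minus the FAC effect without it. The same 12 libraries enter, so the counts are the same order of group means seen from the other agent and no further evidence. FAC changed 5848 genes without 8HQ (54%; 2689 or 24.8% higher, 3159 or 29.2% lower) and 9139 with it (84.4%; 2900 or 26.8% higher, 6239 or 57.6% lower). The classes then held 1761 positive and 4348 negative synergies, 374 and 436 antagonisms and 375 and 940 reversals. Of the 28 immediate early genes, 16 were positive reversals in this reading, since FAC alone lowered them and FAC with 8HQ raised them, against 3.46% of all tested genes (14 to 17 of the 28 under the other scalings). Of the 24 cholesterol genes, 10 were negative reversals and 7 negative antagonisms, since FAC alone raised them, against 8.69% and 4.03% of all tested genes. The reversals among the 24 were 4 with median centring and 6 after quantile normalization. Positive reversal in this reading is open only to the 3159 genes that FAC alone lowered, of which 375 held it. Negative reversal and negative antagonism are open only to the 2689 genes that FAC alone raised, of which 940 and 436 held them. A list with many genes moved by FAC alone therefore exceeds the shares of all tested genes by definition. FAC vs DMSO and 8HQ_FAC vs 8HQ each set libraries with HBB, TYROBP and CD3E at 0 against libraries where all 3 were above 0, and the part of this split was not tested.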

How the data were processed

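RNA of HepG2 cells was sequenced in 12 libraries, 3 in each of 4 groups. The authors deposited 1 table of FPKM per gene and library, without mapped read totals, so counting intervals were not possible. Relative depth was read from the steps between the lowest FPKM values. Per the submitters' processing notes, Bowtie 0.12.2 and the builds mm8 and mm9 were used; these are mouse builds and cannot be those of a human table. The quantifier is not given in the sources used here. Of 20030 genes, 19741 matched RefSeq by GeneID, and 27 symbols that had become dates were restored.

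With limma 3.58.1 (R 4.3.3, variance trend on), 4 group means were estimated from log2(FPKM + 1) over the 12 libraries. This scale understates changes of genes near or below 1 FPKM. Simulated data with known interactions were used to test the fit. The other scalings were quantile normalization, median centring, equal FPKM sums and removal of a lowess trend (span 0.3) against the longest GENCODE transcript of each gene. Other settings were a pseudocount of 0.1, no filter, a filter at 5 FPKM, no variance trend, replicate number as a block, treat at a fold of 1.5, the linear scale, the reading from FAC, and leaving out each library. Figures used Python 3.11.15, pandas 2.3.3, numpy 2.4.6 and matplotlib 3.10.9.

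Genes were named by a rule: per class and direction, the 6 of largest interaction with no overlap of the groups and the same class under all 4 other scalings; a panel of 20 genes; up to 3 genes of largest interaction from each gene list described; and any gene belonging to a count of at most 5. Some genes that the rule names are not reported here. The classes, the 32 lists and the panel were chosen with earlier results of these data known, so they are no independent evidence. Promoters came from RefSeq (GRCh38.p14), for 8950 of the tested genes.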

Additional observations from a re-analysis of the deposited data

Results flagged for a closer look

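Each interaction is by construction a difference between the 8HQ effects with and without FAC, so the counts of calls were all marked for that reason: 2533 positive and 5770 negative interactions by limma, with 2389 and 5469 synergies, 13 and 45 antagonisms and 72 and 142 reversals. Reversals have 8HQ effects of opposite signs without and with FAC. Among the 72 and 142 reversals, only the 6 per direction that the naming rule picked were marked, each with an interaction called by limma. They were EGR1 (4.13), IER3 (3.05), CCN1 (2.23), SGK1 (1.96), IER2 (1.77) and NR4A1 (1.54) in the positive direction, and TBC1D14 (-1.60), MYC (-1.54), ANKRD17 (-1.49), TMCC1 (-1.42), UBE2O (-1.38) and ZBTB40 (-1.36) in the negative direction, all on the log2 scale. The groups hold 3 libraries each, too few to judge whether a single library is an outlier. Counts from fits that leave out 1 library are given below.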

How the results depend on the processing

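With equal FPKM sums, positive calls fell to 1220, positive synergies to 1102 and positive reversals to 40. Median centring gave 5025 positive and 3043 negative calls, 4785 and 2844 synergies, 25 positive antagonisms and 124 and 78 reversals. Quantile normalization gave 3620 negative synergies and 25 positive antagonisms. Removal of the length trend gave 3543 negative calls, 3303 negative synergies, 38 positive antagonisms and 153 positive reversals. Against a fold of 1.5 (limma's treat), 279 positive and 1615 negative calls were left, with 256 and 1526 synergies, 0 and 2 antagonisms and 0 reversals in either direction. Read from FAC, antagonisms were 374 and 436 and reversals 375 and 940. Without the variance trend, positive reversals were 43. The cause of these shifts was not tested.

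Leaving out 1 library at a time gave 2441 to 2511 positive and 5655 to 5733 negative calls, 2303 to 2403 and 5336 to 5486 synergies, 8 to 16 and 29 to 45 antagonisms and 31 to 73 and 59 to 166 reversals. Same-numbered libraries did not deviate together (18 correlations from -0.08 to 0.05), so the numbers share only a number; a replicate block gave 2533 positive and 5772 negative calls. Of 117 named genes, these changed sign: ACTA2 (-0.21 with equal sums, -0.16 without the length trend, -0.017 with quantiles), AHR (0.14), GCLM (0.011), NDRG1 (0.20) and NQO1 (0.14) without the length trend, FTH1 (-0.16) and FTL (-0.27) with quantiles, NDRG1 (0.27) and NQO1 (0.35) with median centring, and SLC40A1 (-0.16) with equal sums. The depth of single genes is not known, so small differences near 1 FPKM could not be judged by counting error.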
